A study of Mus musculus with 12 samples.

Results

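The 10 genes described here encode enzymes and partners that write, erase or maintain marks on DNA and histones and that are mutated, rearranged or required in leukaemia. They are Dnmt1, Dnmt3a, Dnmt3b and Tet2 (DNA methylation), Ezh2, Bmi1 and Asxl1 (Polycomb), and Kmt2a, Kdm6a and Dot1l (histone methylation at active or poised genes). They were chosen by name and are 10 of 20696 genes with at least 1 read. All 10 passed the filter on low counts and were tested.

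DNA methyltransferases add methyl groups to cytosine: Dnmt3a and Dnmt3b place new ones and Dnmt1 copies the pattern after replication, while Tet2 oxidises them on the way to removal. Polycomb complexes silence genes by methylating histone H3 at K27 and by ubiquitylating histone H2A, and the Asxl1 complex takes the ubiquitin off again. Kmt2a (MLL1) methylates H3K4 and Dot1l methylates H3K79, and both keep the Hox and Meis1 genes of blood stem cells active. In blood stem cells, loss of Dnmt3a or Tet2 is known for expanding the stem cell pool, and loss of Bmi1 for exhausting it.

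RNA was measured in polyA-selected libraries of sorted mouse bone marrow cells that were negative for Flk2 and lineage markers and positive for Sca-1 and Kit, the fraction that holds blood stem cells. Each of 4 genotypes gave 3 libraries, and every library carried a mouse number of its own. Wild-type carries neither change; Mdmx-Tg carries a transgene for MDMX, the p53 inhibitor encoded by Mdm4; Pu.1-URE-/- lacks an upstream element (the URE) that drives Spi1, which encodes the myeloid factor PU.1; Mdmx-Tg/Pu.1-URE-/- carries both. The promoter that drives the transgene, the strain and the age of the mice are not given in the sources used here.

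Between 47271286 and 55067735 reads were assigned per library, and each library had 12824 to 14117 genes with 10 reads or more. Levels are given in CPM, reads scaled to 1000000 per library with TMM factors. Mdm4 stood at 163 to 535 CPM with the transgene (6 libraries) against 35.8 to 93.9 CPM without (6 libraries), with no overlap. Spi1 stood at 0.0198 to 23.9 CPM without its element and at 3.69 to 37.98 CPM with it, so the groups overlapped, and the deleted element itself lies outside the transcript. Of the genes of the sort, Kit was at 165 to 328 CPM and Ly6a (Sca-1) at 15.005 to 97.2 CPM in every library. Kit fell without the element, with no overlap (log2 change -0.48, edgeR adjusted p = 0.0482, just under the threshold of 0.05). Flt3 (Flk2), selected against in the sort, rose (log2 change 1.58, edgeR adjusted p = 0.0330). Both calls are from the main fit alone and were not followed through the alternative fits. The summed level of 14 neutrophil granule genes was 851 to 2510 CPM with the element and 33875 to 145463 CPM without it. For loss of the element, 12 of 12 tested rose. Over all genes tested, 8.08% were called higher and 3.81% lower, the shares to set beside each list count here. Other cell type lists also differed in summed level. T and NK cell genes were at 107 to 319 CPM with the element and 1572 to 3963 CPM without it (1 of 6 tested rose). Endothelial and stromal genes were at 18.6 to 54.5 and 98.4 to 223 CPM (1 of 4 rose). In both lists 1 gene held most of the reads over 12 libraries. These were Nkg7 with 933407 reads (next Gzmb, 13706) and Pecam1 with 53285 (next Col1a2, 4049), so the sums mainly follow those genes. Monocyte and macrophage genes were at 274 to 719 and 696.5 to 1864 CPM (2 of 9 rose and 3 fell). Erythroid genes were at 1784 to 5712 and 1091 to 2877 CPM (0 of 10 passed). B and plasma cell genes were at 531 to 25882 and 667 to 3597 CPM (1 of 9 fell). In the same order, the genes with the most reads were Lyz2 (251801, next Ly6c2, 220416), Car2 (1111030, next Car1, 512599) and Jchain (3224444, next Xbp1, 296682). The sums of those lists thus also follow mainly a few genes. Pax5, Trac, Cdh5 and Cxcl12 were at 0 in every library. The part of these genes in the results below was not tested. Immunoglobulin genes took 0.131% to 31.2% of a library's reads, with the highest share in Wild-type 1. In these bulk libraries, fewer cells of a type and less RNA per cell cannot be told apart.

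The start regions of 3 members are shown because later results turn on them. For Dnmt3a and Dnmt1, Salmon divides reads by a model between transcripts from separate starts. Bmi1 had the smallest p of the 10 genes for loss of the Spi1 element. Each run is the 250 bases before a RefSeq transcript start on GRCm38.p6, read 5′ to 3′ on the gene's strand, from RefSeq. Capitals mark GAGGAA, the core letters of PU.1 binding sites, on this strand (on the other strand they would read TTCCTC).
Dnmt3a, long form, chr12:3806730-3806979, plus strand: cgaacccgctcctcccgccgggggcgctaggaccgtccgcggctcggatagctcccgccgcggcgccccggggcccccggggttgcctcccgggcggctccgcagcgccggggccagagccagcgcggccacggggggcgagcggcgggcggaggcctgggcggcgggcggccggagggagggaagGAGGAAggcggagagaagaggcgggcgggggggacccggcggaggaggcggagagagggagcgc
Dnmt3a, short form, chr12:3891494-3891743, plus strand: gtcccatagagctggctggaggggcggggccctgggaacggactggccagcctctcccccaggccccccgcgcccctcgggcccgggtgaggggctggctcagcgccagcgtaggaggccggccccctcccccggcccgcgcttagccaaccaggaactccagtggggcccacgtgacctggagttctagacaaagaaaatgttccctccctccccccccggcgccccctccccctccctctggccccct
Dnmt1, outer start, chr9:20959889-20960138, minus strand: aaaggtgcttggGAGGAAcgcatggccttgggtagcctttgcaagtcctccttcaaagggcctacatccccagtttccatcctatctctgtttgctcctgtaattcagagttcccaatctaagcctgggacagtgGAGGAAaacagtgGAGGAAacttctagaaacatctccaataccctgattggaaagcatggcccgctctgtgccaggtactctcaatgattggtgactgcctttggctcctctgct
Dnmt1, innermost start, chr9:20952624-20952873, minus strand: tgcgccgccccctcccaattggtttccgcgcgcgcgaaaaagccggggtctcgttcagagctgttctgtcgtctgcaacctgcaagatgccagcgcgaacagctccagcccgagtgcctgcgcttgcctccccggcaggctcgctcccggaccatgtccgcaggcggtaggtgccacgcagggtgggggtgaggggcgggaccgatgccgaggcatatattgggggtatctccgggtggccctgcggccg
Bmi1, chr2:18676768-18677017, plus strand: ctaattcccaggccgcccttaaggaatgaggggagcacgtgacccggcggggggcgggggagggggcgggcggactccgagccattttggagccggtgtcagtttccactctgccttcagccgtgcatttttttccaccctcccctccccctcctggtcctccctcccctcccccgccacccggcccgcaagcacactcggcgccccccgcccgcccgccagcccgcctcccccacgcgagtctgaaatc
The Dnmt1 outer window held the letters 3 times, the Dnmt3a long-form window once, and the other windows shown held none on either strand. Over all 10 members, 5 of 14 windows, belonging to 4 genes (Dnmt1, Dnmt3a, Dnmt3b and Ezh2), held GAGGAA on either strand. Among all 32851 RefSeq windows of that length the share was 23.3%. The 2 Dnmt3a long-form windows overlap and share the same match. The windows also differed in CpG dinucleotides, the sites of DNA methylation: 2 in the Dnmt1 outer window, 26 in the Dnmt1 innermost window, 38 and 15 in the long-form and short-form Dnmt3a windows, and 21 in the Bmi1 window, against a median of 6 over all windows. A match is a run of letters and no evidence of binding.

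Per unit of transcript length, Ezh2 and Dnmt1 stood well above the other 8 genes. In TPM, which divides reads by transcript length before scaling, the medians over 12 libraries were 63.7 for Ezh2 and 31.2 for Dnmt1. Ezh2 was above Dnmt1 in 11 of 12 libraries, and Dnmt1 above Kdm6a, the next gene, in 12 of 12. The medians of Kdm6a, Dnmt3b, Asxl1, Tet2, Bmi1, Dnmt3a and Dot1l lay close together, at 8.90, 8.80, 7.61, 6.97, 6.09, 5.70 and 5.22 TPM. Most neighbours in that run changed places between libraries: Kdm6a exceeded Dnmt3b in 5 of 12 and Tet2 exceeded Bmi1 in 4 of 12. Kmt2a was lowest, with a median of 3.22 TPM, and Dot1l exceeded it in 10 of 12 libraries. The rank of Ezh2 rests partly on Ezh2-213, a transcript of 500 bases annotated as retaining an intron, which took 38.4% of the gene's TPM on average but 7.84% of its reads.

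None of the 10 genes was called in any comparison at an adjusted p below 0.05 (edgeR quasi-likelihood test, Benjamini-Hochberg over 15012 genes). For loss of the Spi1 element, averaged over both transgene states, that was 0 of 10 members against 11.9% of all genes tested, 8.08% higher and 3.81% lower. The count was also 0 of 10 for Pu.1-URE-/- against Wild-type (4.71% of all genes, 3.84% higher and 0.866% lower). It was 0 of 10 for Mdmx-Tg/Pu.1-URE-/- against Wild-type (3.34%, 2.47% higher and 0.873% lower) and for Mdmx-Tg/Pu.1-URE-/- against Mdmx-Tg (2.32%, 1.67% higher and 0.646% lower). For Mdmx-Tg against Wild-type, Mdmx-Tg/Pu.1-URE-/- against Pu.1-URE-/-, the transgene averaged over element states and the interaction, 0 of 10 members and 0% of all genes were called. With 10 members, a share near those backgrounds amounts to about 1 gene or none.

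At an unadjusted p below 0.05, edgeR counted 2 of 10 members for loss of the element (26.9% of all genes), 2 of 10 for the transgene (16.3%) and 1 of 10 for Mdmx-Tg/Pu.1-URE-/- against Mdmx-Tg (16.9%). The other 5 comparisons gave 0 of 10, against 10.5% for Mdmx-Tg against Wild-type, 19.8% for Pu.1-URE-/- against Wild-type, 18.5% and 10.7% for the double mutant against Wild-type and Pu.1-URE-/-, and 5.8% for the interaction. DESeq2 called 1 of 10 members, Bmi1, for loss of the element, below the 20.3% of all genes it called there. It called 0 of 10 for the transgene (6.76% of all genes), Pu.1-URE-/- against Wild-type (12.4%), Mdmx-Tg against Wild-type (2.23%) and the interaction (1.32%). For the double mutant it called 0 of 10 against Wild-type (10.2%), Mdmx-Tg (8.64%) and Pu.1-URE-/- (2.19%). The median log2 change of the members was 0.03 for loss of the element, with 5 of 10 above 0, and 0.19 for the transgene, with 8 of 10 above 0; over all genes tested both medians were 0.00. With 6 libraries against 6, no member had groups that did not overlap, against 6.78% of all genes for the element and 1.13% for the transgene. With 3 libraries against 3, 0 of 10 members did not overlap in Pu.1-URE-/- against Wild-type (29.7% of all genes) and in Mdmx-Tg against Wild-type (13.7%), and 1 of 10 in each other pair: Kdm6a, Bmi1 and Dnmt1, described below. The p-values measure the spread between libraries, estimated over all 12.

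**Figure D1:**
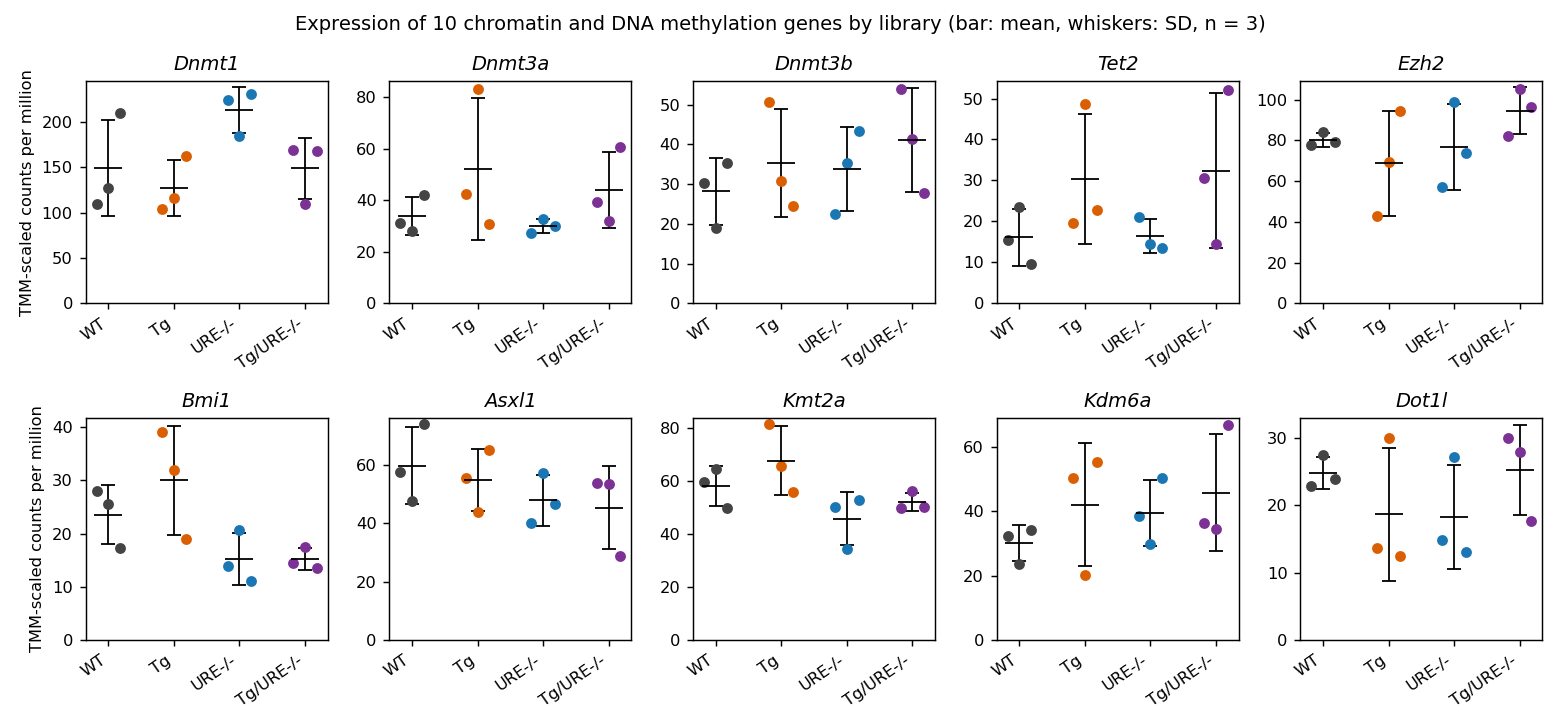
Points are libraries, bars the mean and whiskers the SD of 3 libraries (vertical axes: TMM-scaled CPM from 0; horizontal axes: Wild-type as WT, Mdmx-Tg as Tg, Pu.1-URE-/- as URE-/- and the double mutant as Tg/URE-/-). The Bmi1 points without the element lie between 11.02 and 20.7 CPM, and the highest Tet2 points are single libraries of Mdmx-Tg and of the double mutant at 48.6 and 52.1 CPM.

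**Figure D2:**
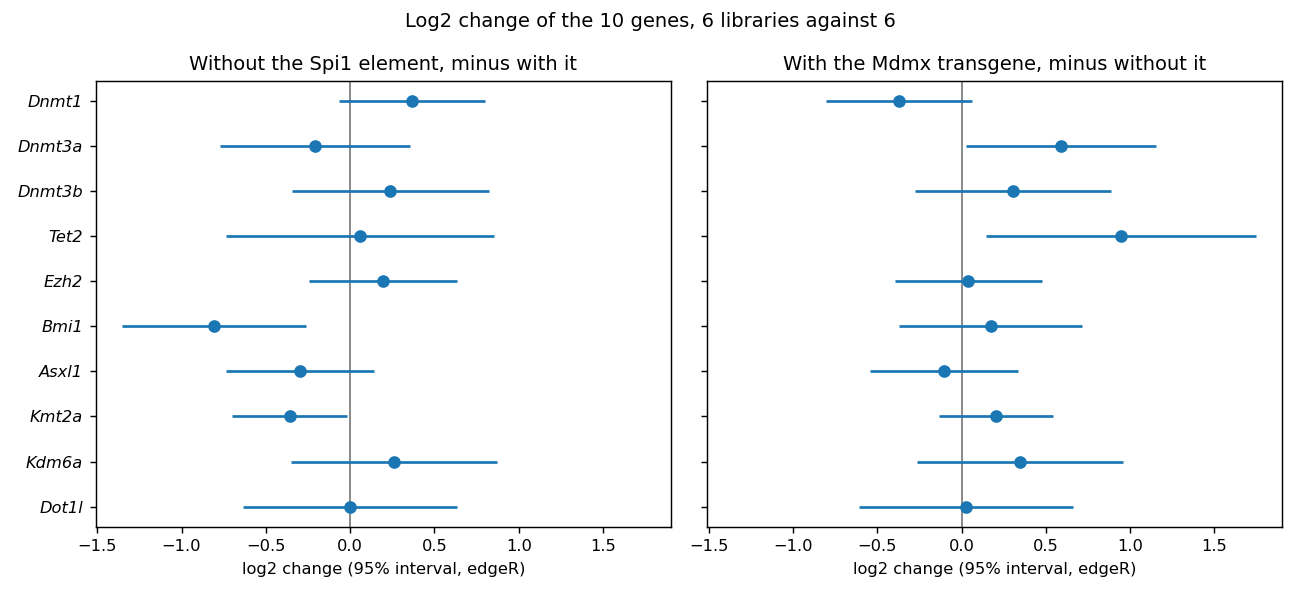
Points are edgeR log2 changes and lines their 95% intervals, for loss of the Spi1 element (left) and the Mdmx transgene (right), 6 libraries against 6. Bmi1 and Kmt2a on the left, and Tet2 and Dnmt3a on the right, have intervals that leave out 0 before adjustment over all genes.

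Bmi1 encodes a core subunit of Polycomb repressive complex 1 and is needed for self-renewal of blood stem cells. Its gene lies at chr2:18677018-18686629 (GRCm38, plus strand). The Wild-type libraries had 27.98, 25.5 and 17.3 CPM, and the Mdmx-Tg libraries 39.2, 32.0 and 19.0 CPM. Those of Pu.1-URE-/- had 13.9, 20.7 and 11.02 CPM, and those of the double mutant 14.4, 17.5 and 13.6 CPM. Only Wild-type 3 and Mdmx-Tg 3 among the libraries with the element lay below the highest library without it, Pu.1-URE-/- 2, at 20.7 CPM. The log2 change for loss of the element was -0.81 (SE 0.25, 95% interval -1.35 to -0.26, unadjusted p = 0.00747), and edgeR's adjusted p was 0.0574, just over the threshold. Within animals without the transgene the log2 change was -0.63 (edgeR adjusted p = 0.358), and within transgenic animals -0.99 (edgeR adjusted p = 0.195), where the 3 libraries of each genotype did not overlap, as in 19.2% of all genes. The interaction, which tests whether those values differ, was -0.35 (95% interval -1.44 to 0.73, edgeR adjusted p = 1.00).

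The call for Bmi1 depended on the fit. Bmi1 passed with relative log expression size factors (adjusted p = 0.0474), DESeq2 (adjusted p = 0.00994) and, with edgeR, immunoglobulin genes left out (adjusted p = 0.0494). It also passed in edgeR without Wild-type 3 (log2 change -0.96, adjusted p = 0.0491), without Mdmx-Tg 3 (-0.99, adjusted p = 0.0257) and without Pu.1-URE-/- 2 (-1.004, adjusted p = 0.0350). Over all alternatives the log2 change ran from -1.004 to -0.744 and the adjusted p from 0.00994 to 0.145, the highest without both libraries with the fewest detected genes. The share of its TPM from Bmi1-202, a coding transcript that starts inside the gene, was 57.1% with the element and 63.3% without (exact two-sided permutation test, p = 0.392, adjusted p = 0.960 over 18 transcript tests).

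Ezh2 encodes the H3K27 methyltransferase of Polycomb repressive complex 2. Its gene lies at chr6:47530139-47595341 (minus strand). The Wild-type libraries had 77.6, 84.0 and 79.3 CPM, a narrow range, and the Mdmx-Tg libraries 42.8, 69.3 and 94.2 CPM. Those of Pu.1-URE-/- had 57.0, 98.9 and 74.0 CPM, and those of the double mutant 82.2, 105 and 96.2 CPM. The narrow Wild-type range was not seen in TPM, where the same libraries had 28.3, 60.3 and 73.6. TPM carries no TMM factor, so the other RNA of a library shifts its values. The lowest value, 28.3, was that of Wild-type 1, where immunoglobulin genes took 31.2% of reads. The part of this in the TPM range was not tested. All genotypes overlapped, Wild-type and the double mutant only between 82.2 and 84.0 CPM. The log2 change was 0.20 for loss of the element (95% interval -0.24 to 0.63, edgeR adjusted p = 0.595) and 0.04 for the transgene (95% interval -0.40 to 0.47, edgeR adjusted p = 0.964).

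Asxl1 encodes the partner of the Bap1 deubiquitinase that removes the Polycomb mark from histone H2A (chr2:153345829-153404007, plus strand). Over 12 libraries it ranged from 28.8 CPM in Mdmx-Tg/Pu.1-URE-/- 3 to 73.9 CPM in Wild-type 3. The log2 change was -0.30 for loss of the element (95% interval -0.74 to 0.14, edgeR adjusted p = 0.389) and -0.10 for the transgene (95% interval -0.54 to 0.34, edgeR adjusted p = 0.862). A single coding transcript, Asxl1-201, took 87.5% to 100.0% of the gene's TPM over the libraries.

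Tet2, which oxidises methylated cytosine, was the most variable of the 10 genes in CPM. Levels were 15.5, 23.4 and 9.50 CPM for Wild-type, 19.6, 48.6 and 22.7 CPM for Mdmx-Tg, 21.1, 14.4 and 13.6 CPM for Pu.1-URE-/- and 30.6, 14.4 and 52.1 CPM for the double mutant. The libraries with the transgene had a median of 26.6 CPM and those without it 14.9 CPM, with overlapping ranges. The log2 change for the transgene was 0.95 (SE 0.36, 95% interval 0.14 to 1.75, unadjusted p = 0.0248, edgeR adjusted p = 0.237). Mdmx-Tg 2 and Mdmx-Tg/Pu.1-URE-/- 3, the highest libraries in CPM, were also the 2 with the fewest genes at 10 reads (12824 and 12952). Without both, an alternative added after seeing the data, the log2 change was 0.39 (edgeR adjusted p = 0.716). With the transcript length offset it was 0.69 (edgeR adjusted p = 0.292). In TPM, Mdmx-Tg/Pu.1-URE-/- 3 was highest (12.2). Mdmx-Tg 2 (7.56) lay below Mdmx-Tg 1 (9.19), Mdmx-Tg/Pu.1-URE-/- 1 (8.34) and Pu.1-URE-/- 2 (7.73). The SD of log2 CPM over the 12 libraries was 0.74 for Tet2, above that of 71.5% of 2069 genes of like level.

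In the highest libraries most Tet2 reads were given to 1 transcript. Tet2 spans chr3:133463679-133545139 on the minus strand of GRCm38, and Tet2-209, annotated as retaining an intron, covers its 3′ end (chr3:133463683-133474819). Tet2-209 took 56.4% of the gene's reads on average. Its levels were 2.32, 20.4 and 8.39 CPM for Wild-type and 7.56, 39.2 and 7.95 CPM for Mdmx-Tg. For Pu.1-URE-/- they were 12.5, 6.32 and 2.94 CPM, and for the double mutant 18.3, 7.24 and 50.5 CPM. The same 4 libraries (Wild-type 2, Mdmx-Tg 2, and the double mutant's 1 and 3) were highest for Tet2-209 and for the whole gene. All other Tet2 transcripts together ranged from 1.11 to 14.8 CPM, with medians of 10.7 CPM with the transgene and 8.31 CPM without it. In Mdmx-Tg/Pu.1-URE-/- 3 they were at 1.62 CPM and in Wild-type 3 at 1.11 CPM. Tet2-209 shares exons with the coding transcript Tet2-201, and Salmon divides shared reads by a model, so the split is an estimate. No coding Tet2 transcript held 10% of the pooled TPM, so none was tested for its share.

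**Figure D3:**
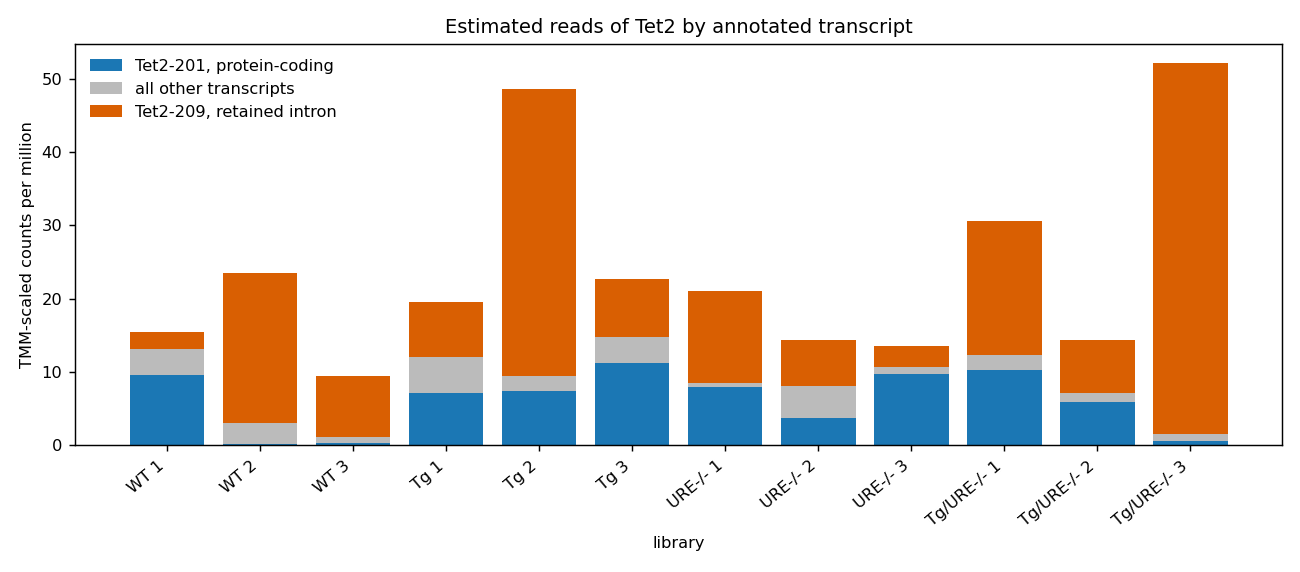
Stacked bars give the CPM of Tet2 in each library (horizontal axis, labelled as genotype and replicate) from Tet2-201, Tet2-209 and all other transcripts. The tallest bars, of Mdmx-Tg 2 and the double mutant's replicate 3, consist mainly of Tet2-209, at 39.2 and 50.5 CPM.

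Dnmt3a, which places new methyl groups and is mutated early in human leukaemia, had the same pair of high libraries in CPM (gene at chr12:3806007-3914443, plus strand). Levels were 31.4, 27.98 and 42.0 CPM for Wild-type, 42.4, 83.4 and 30.6 CPM for Mdmx-Tg, 27.2, 32.8 and 29.9 CPM for Pu.1-URE-/- and 39.4, 31.9 and 60.6 CPM for the double mutant. In CPM, Mdmx-Tg 2 and Mdmx-Tg/Pu.1-URE-/- 3 stood above every other library, and the rest overlapped. In TPM, Mdmx-Tg 1 (11.3) lay between Mdmx-Tg 2 (16.4) and Mdmx-Tg/Pu.1-URE-/- 3 (11.1). The log2 change for the transgene was 0.59 (95% interval 0.02 to 1.16, unadjusted p = 0.0424, edgeR adjusted p = 0.287). It was 0.15 without Mdmx-Tg 2 and Mdmx-Tg/Pu.1-URE-/- 3 (edgeR adjusted p = 0.828) and 0.81 with the transcript length offset (edgeR adjusted p = 0.190). For loss of the element it was -0.21 (95% interval -0.77 to 0.35, edgeR adjusted p = 0.672).

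The short Dnmt3a form outweighed the long one in every library. Dnmt3a-203, from the inner start at chromosome 12 position 3891744, exceeded Dnmt3a-201, from the outer start at 3807030, in 12 of 12 libraries by TPM. The short form took 66.9% of the gene's TPM on average and the long form 20.2%. Their ratio was 2.11, 2.37 and 1.66 in Wild-type, 6.10, 11.9 and 4.62 in Mdmx-Tg, 5.33, 1.40 and 2.85 in Pu.1-URE-/- and 5.29, 3.00 and 9.09 in the double mutant. The short form stood at 3.62 to 12.1 TPM with the transgene and at 1.59 to 4.86 TPM without it, and the long form at 0.794 to 1.21 and 0.678 to 2.92 TPM, so both overlapped. The share of the short form was 71.6% with the transgene and 62.1% without, a difference of 9.48 percentage points (exact two-sided permutation test over 6 against 6 libraries, p = 0.0844, adjusted p = 0.760 over 18 tests). Only 28 of the 31-base words of Dnmt3a-203 and 56 of Dnmt3a-201 occur in no other transcript of the gene, which limits how well reads tell them apart.

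Dnmt3b, the other enzyme for new methylation (chr2:153649450-153687730, plus strand), ranged from 18.9 CPM in Wild-type 2 to 54.0 CPM in Mdmx-Tg/Pu.1-URE-/- 1. It did not share the high values of Dnmt3a: Mdmx-Tg 2 stood at 30.9 CPM and Mdmx-Tg/Pu.1-URE-/- 3 at 27.8 CPM. The log2 change was 0.24 for loss of the element (95% interval -0.35 to 0.82, edgeR adjusted p = 0.636) and 0.31 for the transgene (95% interval -0.28 to 0.89, edgeR adjusted p = 0.628). Its coding transcripts have no 31-base word of their own, so the shares of single forms are not described.

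Dnmt1, which copies methylation after replication, had log2 changes of opposite sign for the element and the transgene, neither past the test (gene at chr9:20907209-20959888, minus strand). Levels were 110, 127 and 210 CPM for Wild-type, 104, 116 and 162 CPM for Mdmx-Tg, 224, 184 and 231 CPM for Pu.1-URE-/- and 169, 110 and 168 CPM for the double mutant. The double mutant lay wholly below Pu.1-URE-/- (log2 change -0.52, edgeR adjusted p = 0.537), and 18.8% of all genes did not overlap in that pair. The log2 change was 0.37 for loss of the element (95% interval -0.06 to 0.80, edgeR adjusted p = 0.263) and -0.37 for the transgene (95% interval -0.80 to 0.06, edgeR adjusted p = 0.382). The summed level of 18 proliferation genes, listed because Dnmt1 is made in dividing cells, was 3405 to 5311 CPM in Wild-type, 3221 to 4242 CPM in Mdmx-Tg, 5166 to 7313 CPM in Pu.1-URE-/- and 4921 to 5626 CPM in the double mutant. Its part in the Dnmt1 values was not tested.

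By TPM, Dnmt1 was divided between transcripts with different starts. Dnmt1-202, from the outer start, took 49.2% on average and Dnmt1-201, from the middle start, 44.8%. Salmon divides the reads they share by a model, so these shares are estimates and no measure of which start was used. Dnmt1-203, from the innermost start, took 0.135%. The window printed above for that start, with 26 CpG dinucleotides, lies downstream of the middle RefSeq start at 20952979 (minus strand). The window of the middle start, chr9:20952980-20953229, is not printed and held 7 CpG dinucleotides. The outer transcript ranged from 34.6% to 80.2% of the gene's TPM over the libraries. Its share was 49.1% with the element and 49.2% without (exact two-sided permutation test, p = 0.985, adjusted p = 0.985). Dnmt1-203 has only 18 words of 31 bases of its own against 154 and 163 for the others, so its low share is uncertain.

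Kmt2a, the H3K4 methyltransferase cut by MLL translocations, had the lowest SD of log2 CPM of the 10 genes (chr9:44803355-44881296, minus strand). Levels were 59.7, 64.6 and 49.8 CPM for Wild-type, 81.5, 65.9 and 55.8 CPM for Mdmx-Tg, 50.3, 34.5 and 52.7 CPM for Pu.1-URE-/- and 49.9, 56.2 and 50.2 CPM for the double mutant. The libraries without the element had a median of 50.3 CPM and those with it 62.2 CPM, and the ranges overlapped. The log2 change was -0.36 (SE 0.15, 95% interval -0.70 to -0.02, unadjusted p = 0.0400), with an edgeR adjusted p of 0.161. Leaving out single libraries moved it between -0.48 and -0.32. Its SD, 0.30, exceeded that of only 16.8% of 1964 genes of like level. The log2 change for the transgene was 0.20 (95% interval -0.14 to 0.54, edgeR adjusted p = 0.564).

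Kdm6a (UTX) removes methyl groups from H3K27 and is X-linked, with a Y-linked relative, Uty (Kdm6a at chrX:18162575-18279936, plus strand). Levels of Kdm6a were 32.5, 23.8 and 34.1 CPM for Wild-type, 50.4, 20.1 and 55.5 CPM for Mdmx-Tg, 38.5, 30.0 and 50.4 CPM for Pu.1-URE-/- and 36.3, 34.4 and 66.8 CPM for the double mutant. The double mutant lay above Wild-type without overlap (log2 change 0.61, 95% interval -0.26 to 1.47, edgeR adjusted p = 0.473), and 26% of all genes did not overlap in that pair. For loss of the element the log2 change was 0.26 (95% interval -0.35 to 0.87, edgeR adjusted p = 0.616), and it was -0.12 without the 2 libraries with the fewest detected genes. For the transgene it was 0.35 (95% interval -0.27 to 0.96, edgeR adjusted p = 0.593).

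Uty was high in 3 libraries, with 30.9 CPM in Wild-type 2 and 41.9 and 42.7 CPM in replicates 1 and 3 of the double mutant. The remaining 9 ranged from 0.196 to 0.536 CPM. The sum of 4 Y-linked genes separated the same 3 libraries (200 to 222 CPM) from the rest (1.88 to 5.70 CPM). Kdm6a itself was at 23.8, 36.3 and 66.8 CPM in those 3 libraries, against 20.1 to 55.5 CPM in the rest. Kdm6a and Uty together reached 54.7, 78.2 and 110 CPM there and 20.3 to 56.0 CPM elsewhere. Y-linked RNA was thus not balanced over the genotypes. With Y-linked expression as a covariate, the Kdm6a log2 change was 0.24 for loss of the element (edgeR adjusted p = 0.730) and 0.33 for the transgene (edgeR adjusted p = 0.729), close to the values without it.

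**Figure D4:**
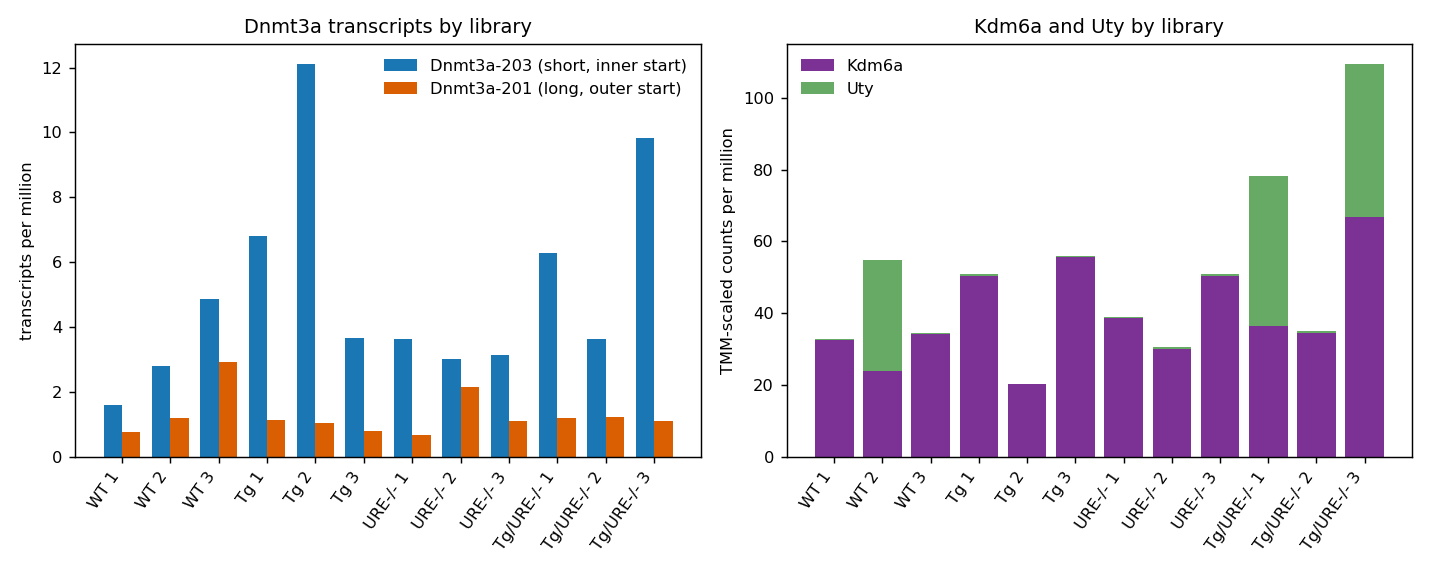
Left, TPM of the short and long Dnmt3a transcripts in each library, with the short one higher in 12 of 12. Right, stacked CPM of Kdm6a and its Y-linked relative Uty, which exceeds 30 CPM in 3 libraries only.

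Dot1l, the H3K79 methyltransferase, lies at chr10:80755206-80795461 (plus strand). The Wild-type libraries had 22.9, 27.5 and 24.0 CPM, and the Mdmx-Tg libraries 13.6, 30.1 and 12.4 CPM. Those of Pu.1-URE-/- had 14.8, 27.2 and 13.0 CPM, and those of the double mutant 30.1, 27.96 and 17.6 CPM. Wild-type and the double mutant had the higher means, 24.8 ± 2.37 and 25.2 ± 6.66 CPM (SD, n = 3), and the single mutants the lower ones, 18.7 ± 9.88 and 18.3 ± 7.70 CPM. This order was not seen in TPM, where the means were 4.71 ± 2.09 for Wild-type, 5.08 ± 2.84 for Mdmx-Tg, 4.62 ± 2.69 for Pu.1-URE-/- and 9.85 ± 4.42 for the double mutant (SD, n = 3). TPM carries no TMM factor, and the lowest Dot1l TPM, 2.61, was that of Wild-type 1, where immunoglobulin genes took 31.2% of reads. The part of this in the order was not tested. The interaction was 0.87 on the log2 scale (95% interval -0.41 to 2.14, edgeR adjusted p = 0.930), and it ran from 0.609 to 1.953 over the alternatives, none past the threshold. The averaged log2 changes were -0.002 for loss of the element (95% interval -0.64 to 0.63) and 0.03 for the transgene (95% interval -0.61 to 0.66). With the transcript length offset the transgene value was 0.495 (edgeR adjusted p = 0.543). Dot1l-201, the coding form with 91.8% of the gene's reads, took 64.2% of the gene's TPM without the transgene and 45.2% with it, a difference of -19.0 percentage points (exact two-sided permutation test, p = 0.0736, adjusted p = 0.760). Of 18 such tests over 9 members none passed after adjustment, and the smallest p that 6 against 6 libraries allow is 0.00216.

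Among the partners of the DNA methylation genes, Dnmt3l and Uhrf1 rose without the Spi1 element. Of 19 genes tested on the list of DNA methylation and demethylation, 2 rose and 0 fell (8.08% and 3.81% of all genes), with a median log2 change of 0.24. Dnmt3l, an inactive relative that stimulates Dnmt3a and Dnmt3b, had 0 reads in all 6 libraries with the element. Without it, Dnmt3l had 89, 102 and 204 reads in Pu.1-URE-/- and 77, 42 and 52 reads in the double mutant. Dnmt3l passed the filter on low counts only through the libraries without the element, so its call is a description. With reads pooled, and set against 3 reads in all over the libraries at 0, its level was at least 197-fold higher. That bound leaves out the spread between libraries. Its level there was 0.781 to 4.02 CPM. Uhrf1, which brings Dnmt1 to newly copied DNA, stood at 30.1 to 84.8 CPM with the element (median 70.4) and 84.0 to 178 CPM without it (median 113). The ranges overlapped only by 84.0 against 84.8 CPM, and the log2 change was 0.98 (SE 0.23, edgeR adjusted p = 0.0217). The Uhrf1 call was lost without any 1 of 7 libraries, among them all 3 of Wild-type, with edgeR adjusted p-values up to 0.0784, and without both libraries with the fewest detected genes.

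In the Polycomb lists the share of genes called was near or below that of all genes (8.08% higher and 3.81% lower). Of 11 genes of Polycomb repressive complex 2, 0 passed for loss of the element, and 2 had an unadjusted p below 0.05, against 26.9% of all genes. Of 23 genes of complex 1, 1 rose and 1 fell, and 8 had an unadjusted p below 0.05. Yaf2, which bridges the complex to the Yy1 factor, stood at 15.7 to 30.3 CPM with the element and 34.6 to 61.5 CPM without it, with no overlap (log2 change 0.99, SE 0.16, edgeR adjusted p = 0.00276). Phc1, a polyhomeotic subunit of the same complex as Bmi1, stood at 13.2 to 26.2 CPM with the element and 2.42 to 13.4 CPM without it (log2 change -1.37, SE 0.36, edgeR adjusted p = 0.0324). The Phc1 call was lost without any 1 of 6 libraries and in 3 other fits: with a block by mouse number series, with the Y-linked covariate and without both libraries with the fewest detected genes. Of 10 genes tested of the deubiquitinase list of Asxl1, 0 passed and 1 had an unadjusted p below 0.05.

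Among 17 genes of the MLL/COMPASS list, which methylate H3K4, Wdr5 rose and Kmt2c fell, a count near the share of all genes (8.08% higher and 3.81% lower). Wdr5, a shared core subunit, stood at 32.9 to 88.2 CPM with the element and 90.7 to 142 CPM without it, with no overlap (log2 change 0.70, SE 0.17, edgeR adjusted p = 0.0262), and its call was lost without any 1 of 6 libraries and with the Y-linked covariate. Kmt2c, an enhancer methyltransferase and leukaemia suppressor, stood at 25.1 to 53.6 CPM with the element and 15.3 to 31.1 CPM without it (log2 change -0.77, SE 0.19, edgeR adjusted p = 0.0222). It kept its call when each library was left out, but not without both libraries with the fewest detected genes (edgeR adjusted p = 0.0612) or with the Y-linked covariate. Of the 3 KDM6 genes, 0 passed at either threshold.

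Of 16 genes around Dot1l and the super elongation complex, Mllt3 fell and Aff3 rose, again a count near the share of all genes. Mllt3 (AF9) binds Dot1l, is a frequent fusion partner of MLL and maintains blood stem cells. Levels were 124, 62.4 and 102 CPM for Wild-type and 118, 122 and 76.2 CPM for Mdmx-Tg. For Pu.1-URE-/- they were 18.9, 39.01 and 18.7 CPM, and for the double mutant 12.04, 23.9 and 11.3 CPM. The groups did not overlap, and the log2 change of -2.33 (SE 0.30, edgeR adjusted p = 0.000635) was the largest fall among the called partners and targets named here. Aff3, a relative of the elongation factor Aff4, rose by a log2 change of 0.73 (edgeR adjusted p = 0.0323), a call lost without any 1 of 8 libraries and with the Y-linked covariate.

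Of 8 tested genes known to depend on MLL, Dot1l or Polycomb in blood stem cells, 2 fell and 0 rose without the element, against 3.81% and 8.08% of all genes. Mecom (Evi1), a stem cell transcription factor, stood at 20.9 to 116 CPM with the element and 7.79 to 19.7 CPM without it, with no overlap (log2 change -1.61, SE 0.29, edgeR adjusted p = 0.00472). Meis1, the Hox cofactor, stood at 256 to 669 CPM with the element and 45.0 to 436 CPM without it (log2 change -1.25, SE 0.36, edgeR adjusted p = 0.0451). The Meis1 call was lost without any 1 of 9 libraries, without the low-count filter and with either block (replicate or mouse number series). The median log2 change of this list was -0.55 for loss of the element and 0.88 for the transgene, where 0 of 8 passed and 6 of 8 had an unadjusted p below 0.05, against 16.3% of all genes. Meis1 then had a log2 change of 1.00 (edgeR adjusted p = 0.210) and Mecom of 0.76 (edgeR adjusted p = 0.217).

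Of 29 tested other chromatin genes altered in leukaemia, 3 rose without the element, near the 8.08% of all genes: Rad21, a cohesin subunit (log2 change 0.65, edgeR adjusted p = 0.0211), Nsd2, an H3K36 methyltransferase (0.60, edgeR adjusted p = 0.0455), and Hdac1, a histone deacetylase (0.62, edgeR adjusted p = 0.0464). The Rad21 call was lost without any 1 of 6 libraries. The Nsd2 and Hdac1 calls were each lost in 18 of 21 alternatives, 11 and 10 of them single libraries left out. Rad21 alone had no overlap, at 68.9 to 118 CPM with the element and 132 to 161 CPM without it. Of the 18 proliferation genes 6 rose and all 18 had log2 changes above 0, with a median of 0.42, against 8.08% of all genes called higher. Among those that rose were Cdk1, the mitotic kinase (log2 change 1.07, edgeR adjusted p = 0.00341), and Rrm2, which makes nucleotides for DNA (1.27, edgeR adjusted p = 0.00386). Without the 2 libraries with the fewest detected genes, 2 proliferation genes were called, against 5.21% of all genes called higher in that fit. For the transgene 0 genes were called by edgeR on any of these lists, and proliferation genes had a median of -0.36 with 3 of 18 above 0. DESeq2 called up to 5 genes of a list for the transgene, 4 higher and 1 lower of 29 among the other chromatin genes, against 6.76% of all genes.

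**Figure D5:**
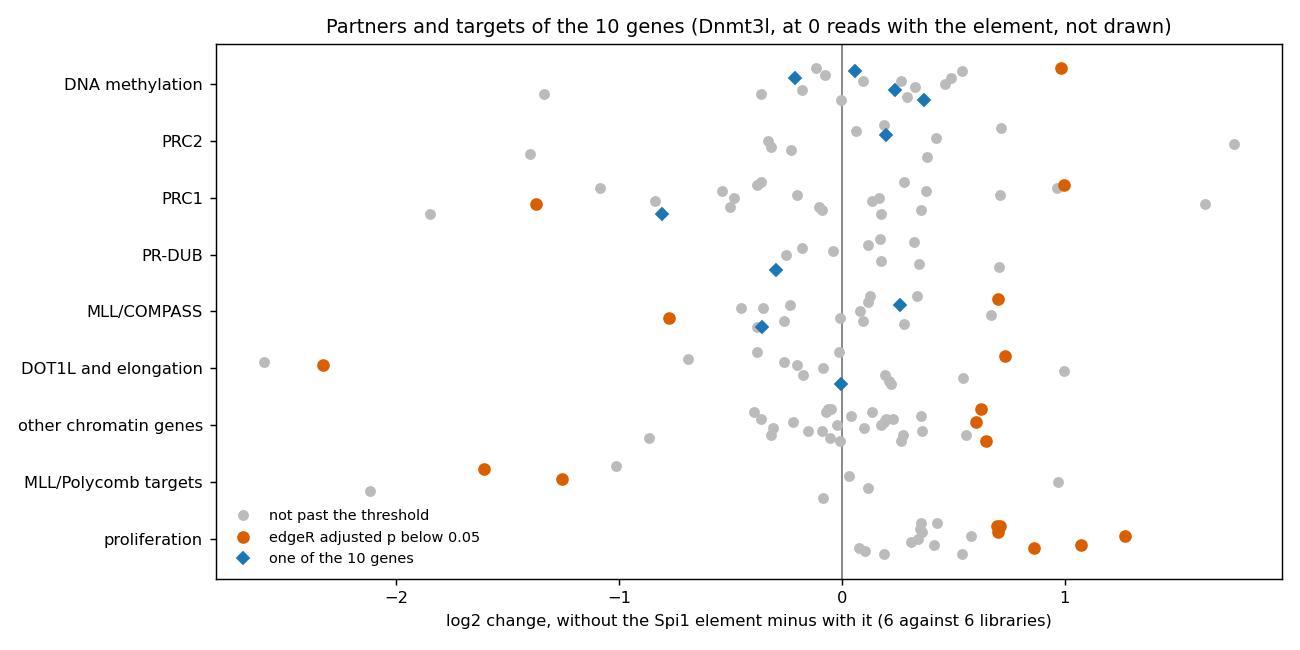
Each point is a gene of a list (rows), placed by its edgeR log2 change for loss of the Spi1 element (horizontal axis, 6 against 6 libraries). Orange points passed an adjusted p of 0.05, and blue diamonds are members, none of which passed; Mllt3 is the leftmost orange point, at -2.33.

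For each member, the gene whose centred log2 CPM followed it most closely over the 12 libraries was found by the root-mean-square difference among 9586 coding genes. By that difference, the closest matches were Smc2, a condensin subunit, for Dnmt1 (0.14, against a spread of 0.41 of Dnmt1 itself) and Ngly1 for Kmt2a (0.14 against 0.29). Tet2 was followed by Crebbp, a histone acetyltransferase (0.28 against 0.71), and Dnmt3a by Pibf1 (0.23 against 0.47). Crebbp had a log2 change of 0.83 for the transgene (edgeR adjusted p = 0.186), which is no separate observation, since Crebbp was picked for following Tet2. Bmi1 was followed by Smim10l1 (0.22 against 0.53), Ezh2 by Zfp91 (0.17 against 0.35) and Asxl1 by Rpl13 (0.16 against 0.34). Dnmt3b was followed by Wipf1 (0.26 against 0.45), Dot1l by Vps54 (0.29 against 0.48) and Kdm6a by Rfxank (0.29 against 0.48). These are descriptions over shared libraries, depth and scaling, with no test.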

How the data were processed

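Per the labels' protocols, sorted cells gave RNA through an RNeasy micro kit, and mRNA was enriched and sequenced on the BGISEQ-500 with paired 100 bp reads. The submitters' processing notes name FastQC, Salmon, DESeq2, mm10 and GRCm38 and give no tool version. Per the file headers, the deposited files hold estimated counts (expected counts) per transcript, 35.3% of them not whole, and TPM computed by the authors.

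Of 116248 transcripts, 115995 matched GENCODE M21; the 253 others (at most 0.0841% of a library's reads) were left out. Counts were summed per gene, rounded, filtered (filterByExpr, minimum count 10, total 15), scaled by TMM and fitted with edgeR 4.0.16 in R 4.3.3, with 1 mean per genotype over 12 libraries. Intervals are at 95%. Code was tested on simulated data. CPM came from rounded counts. Levels between genes and transcript shares used TPM, to which no TMM factor was applied.

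The members and lists were chosen with earlier results of these data known, so counts over them are descriptions. All 10 members are named; of each other list, at most 4 called genes by smallest p, plus set paralogs and partners, and 1 nearest gene per member (mean log2 CPM of at least 2). The start regions printed were picked after values were seen. Transcript shares were tested for each member's main coding transcript holding at least 10% of TPM. Alternatives were other size factors, DESeq2 1.42.0, no filter and a length offset. Further ones were a replicate block, a block by mouse number series, a Y-linked covariate and each library left out. Leaving out immunoglobulin genes, and both libraries with the fewest detected genes, was added after seeing the data. The series are runs of mouse numbers grouped here: 351 to 358, 371 to 373 and 380 to 396. The middle run held no Wild-type or double mutant library and the last no Pu.1-URE-/- library, so this block is partly confounded with genotype. Lists were DNA methylation and demethylation, Polycomb repressive complexes 1 and 2, the deubiquitinase, MLL/COMPASS, KDM6, Dot1l and elongation, other chromatin genes, targets, proliferation, and markers of the sort and of other cells.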

Additional observations from a re-analysis of the deposited data

How the results depend on the processing

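For loss of the Spi1 element, 0 of 10 members were called, and 1 of 10 (Bmi1) with relative log expression size factors, with DESeq2, with the replicate block and with immunoglobulin genes left out; leaving out 1 library gave 0 to 1. In every other comparison the count was 0 under every alternative run, and in no alternative did a transcript share pass. Of 42 results on single genes, 23 kept direction and side of the threshold, 11 lost a call, 1 gained one and 7 reversed, none of these past the threshold in the reported fit. Reversals for loss of the element were Tet2 (0.06; length offset -0.067, Y-linked covariate -0.22, libraries left out -0.20 to 0.32), Dnmt3a (-0.21; libraries left out -0.40 to 0.048), Kdm6a (0.26; both libraries with the fewest detected genes left out -0.12) and Dot1l (-0.00; no filter 0.001, length offset 0.22, Y-linked covariate 0.002, both libraries left out 0.33, 1 left out -0.25 to 0.26). For the transgene they were Ezh2 (0.04; 1 left out -0.12 to 0.15), Asxl1 (-0.10; both left out 0.057, 1 left out -0.19 to 0.015) and Dot1l (0.03; both left out -0.16, 1 left out -0.23 to 0.21). The cause was not tested.

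Calls over all genes moved more. For loss of the element they were 1785, 952 without Pu.1-URE-/- 3, 1148 without both libraries with the fewest detected genes and 2985 with DESeq2. For the transgene they were 0, 447 without Mdmx-Tg 3 and 996 with DESeq2. Same-numbered libraries did not deviate together (18 pairs, r -0.15 to 0.09). With deviations taken from means of 3 libraries, this cannot exclude that the numbers pair them. With the replicate block, Bmi1 passed (edgeR adjusted p = 0.0402). Members had 559 to 13707 reads per library, so the spread between 3 libraries a genotype, not counting error, sets the precision.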

Other observations

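None of the relatives given here passed the test, and no difference between a relative and its member was tested. Tet1, a paralog of Tet2, had 9.37, 26.6 and 5.55 CPM for Wild-type and 40.7, 26.5 and 11.9 CPM for Mdmx-Tg, and 5.62 to 9.81 CPM in all 6 libraries without the Spi1 element. Its log2 change for loss of the element was -1.34 (edgeR adjusted p = 0.0586), and the ranges overlapped through Wild-type 1 and Wild-type 3. Tet3 had a log2 change of 0.46 (edgeR adjusted p = 0.357). Ezh1, the paralog of Ezh2, stood at 6.55 to 40.7 CPM over the 12 libraries, with its lowest value in Wild-type 2. The log2 ratio of Ezh2 over Ezh1 in CPM, which is not scaled by length, ran from 0.86 to 3.68 and was highest in that library. Kdm6b, the paralog of Kdm6a, stood at 63.0 to 177 CPM. Mdmx-Tg 2 and Mdmx-Tg/Pu.1-URE-/- 3 were its highest libraries, at 177 and 138 CPM, and were also the highest in CPM for Tet2 and Dnmt3a. The Kdm6b log2 change for the transgene was 0.39 (edgeR adjusted p = 0.314).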
